A study of Mus musculus with 24 samples.

Results

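The RNA levels of 5 lysosomal cathepsins were followed in bone marrow-derived basophils of TTP-KO and WT mice. Ctsl, Ctss, Ctsb, Ctsz and Ctsd were found by their symbols among the 15737 genes of the deposited table, and all 5 passed the filter on low counts. They were chosen by name with results of these data in view, and Ctsl was selected on its read counts over the chase, which stood far lower at the end in WT and much less so in TTP-KO. Its values are therefore a description with no test, and the other 4 were tested. TTP, encoded by Zfp36, is an RNA-binding protein that binds AU-rich stretches in the 3′ UTR of messenger RNAs and promotes their decay.

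Marrow cells of both genotypes were grown with IL-3 for 7 days. IgE against the hapten TNP and the uridine analogue 4-thiouridine (s4U) were added on day 6, and CD49b-positive cells were selected with magnetic beads. These received TNP-coupled ovalbumin for 1.5 h with s4U, were washed, and were kept for 0, 1, 2 or 4 h without either. RNA was alkylated and sequenced as 3′ tags from polyadenylated RNA. The 8 groups were TTP-KO and WT at 0, 1, 2 and 4 h, with 3 libraries each, 24 in all, named here by the letters A, B and C of the table. The labels give neither the ages of the mice nor the way in which TTP was removed. Whether the libraries of a group stem from separate mice or cultures is not stated, so the spread behind each p-value may be technical.

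Cathepsins are proteases that are made as inactive precursors, carried to endosomes and lysosomes by mannose 6-phosphate receptors, and activated by cleavage at low pH. Most are cysteine proteases held in check by cystatins, and cathepsin D is an aspartic protease. They break down proteins taken up by the cell, and in antigen-presenting cells they process antigen and the invariant chain of MHC class II. Macrophages carry large amounts of several of them.

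Libraries held 8839260 to 25372890 reads. The smallest, TTP-KO 4 h B and C, also gave Actb, the cytoskeletal actin gene, 4.15% and 4.27% of their reads, against 5.92% in TTP-KO 4 h A and 6.61% to 6.86% in the WT 4 h libraries. Zfp36 itself averaged 185 ± 26.2, 46.3 ± 11.4, 40.03 ± 12.1 and 37.5 ± 21.4 CPM at 0, 1, 2 and 4 h in TTP-KO, against 237 ± 27.8, 126 ± 21.5, 75.5 ± 2.93 and 68.4 ± 9.89 CPM in WT. The unit is TMM-scaled CPM, and errors of means are SDs of 3 libraries. Reads were scaled by the library total times a TMM factor, which ran from 0.885 (TTP-KO 0 h B) to 1.17 (TTP-KO 4 h B). The 3′ tags of Zfp36 may lie outside the deleted part, so they are no check of the deletion. The 12 basophil markers, among them Mcpt8 and Prss34, were all above 0 in every group, and their summed level was 43940 ± 887 CPM in TTP-KO and 44610 ± 734 CPM in WT at 0 h. The 8 mast cell markers, 7 of them in the table, summed to 139 ± 15.7 CPM in TTP-KO and 244 ± 9.52 CPM in WT at that time, with Mcpt1 at 0 in TTP-KO. The 13 dendritic and B cell markers summed to 614 ± 23.4 CPM in TTP-KO and 384 ± 39.6 CPM in WT at 0 h, with Siglech and Xcr1 at 0 in both genotypes. Of these lists, edgeR called Cebpa (log2 difference -0.73) and Tpsb2 (-0.98) lower and H2-Aa (0.91) and Cd74 (0.83) higher in TTP-KO at 0 h. Of all 12936 genes, 10 were lower and 58 higher. Later calls were Ms4a2 lower at 2 h, Tpsb2 lower and Hdc higher at 4 h, H2-Aa higher at 1 h and Cd74 higher at 1, 2 and 4 h.

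Markers of macrophages moved with the genotype. Of 20 markers 19 were in the table, none was at 0 in any group, and their summed level lay between 2583 and 2731 CPM in the TTP-KO libraries at 0 h and between 1059 and 1116 CPM in the WT libraries. At 4 h the range was 1598 to 1942 CPM in TTP-KO and 691 to 746 CPM in WT. Of the 19 markers, 10, 8, 9 and 8 were higher in TTP-KO at 0, 1, 2 and 4 h and none was lower, while 0.448%, 0.402%, 0.410% and 0.943% of all 12936 genes tested were higher. Adgre1, the gene of the macrophage marker F4/80, stood at 97.9 ± 17.3 CPM in TTP-KO and 94.6 ± 11.2 CPM in WT at 0 h (log2 difference 0.05 ± 0.23, edgeR adjusted p = 1), a difference that turned negative without single libraries of that time. Macrophages are a known source of the 5 cathepsins, and the part of these cells in the results below was not tested. In such bulk samples, fewer cells of a type and less RNA per cell cannot be told apart.

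The sequences that follow show which members carry a motif known to be bound by TTP. In the longest 3′ UTR annotated for each gene (GENCODE M21, GRCm38, transcript strand), the core motif TATTTAT was found once, in Ctsb, and in none of the other members. Among 12740 tested genes with a 3′ UTR, 30.7% held it. The longer form TTATTTATT, which contains it and which 8.38% of these genes held, was found in no member. The 3′ UTR of Ctsb (Ctsb-201) has 3594 bases, and the site begins at base 2494. Capitals mark the motif:
Ctsb: ctacccctttaTATTTATtcatgcagttt

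Ctsl, the member with the largest distance between the genotypes at 4 h, had no TATTTAT, but 4 copies of the shorter ATTTA, which lies inside it and which 70.3% of the genes held. Its longest 3′ UTR (Ctsl-205) has 4761 bases, against a median of 1183 over the genes searched. Transcript Ctsl-201 ends in a 3′ UTR of 884 bases with 1 ATTTA, and Ctsl-206 in one of 109 bases with 0. The 4 copies begin at bases 729, 2431, 2983 and 4350, with the motif in capitals:
Ctsl site 1: cttacctcaaatATTTAattactttgttg
Ctsl site 2: atgaaggaacagATTTAcaaattggccaa
Ctsl site 3: ctgccgtttggcATTTAtgtcagttctag
Ctsl site 4: ttttctgttatgATTTAttaaaaagctgg

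The 3′ UTR of Ctsb holds 2 copies of ATTTA. Those of Ctss, Ctsz and Ctsd have 218, 379 and 660 bases and hold none of these motifs. A match is a string of letters in an annotated transcript and does not say that TTP binds there. Which 3′ end the cells use was not examined.

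Ctsl (ENSMUSG00000021477, chromosome 13) encodes cathepsin L, a cysteine endopeptidase. In TTP-KO, libraries A, B and C held 473, 446 and 423 CPM at 0 h, 389.7, 326 and 277 at 1 h, 251.5, 282 and 297 at 2 h, and 227, 221 and 231 at 4 h. In WT they held 108, 85.0 and 109 CPM at 0 h, 85.2, 73.4 and 73.4 at 1 h, 18.9, 47.0 and 36.3 at 2 h, and 7.50, 11.01 and 12.5 at 4 h. Every TTP-KO library lay above every WT library at any time, and the lowest TTP-KO library of all, at 4 h, was still above the highest WT library, at 0 h.

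The distance between the genotypes was widest at the end. Mean levels of Ctsl were 4.45-fold, 4.28-fold, 8.12-fold and 21.9-fold higher in TTP-KO than in WT at 0, 1, 2 and 4 h, and the fitted log2 differences were 2.15 ± 0.20, 2.10 ± 0.20, 3.03 ± 0.20 and 4.46 ± 0.22 (SE). In TTP-KO the mean stood at 73.9%, 61.9% and 50.5% of its 0 h value at 1, 2 and 4 h, and in WT at 77.0%, 33.9% and 10.3%. At 1 h the shares were thus alike, and from 2 h on they parted. The log2 change over the 4 h was -0.99 ± 0.19 in TTP-KO and -3.29 ± 0.21 in WT, a difference of 2.30 ± 0.28.

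Behind the lowest values stood 162 to 209 reads of Ctsl per WT library at 4 h, against 2281 to 4152 per TTP-KO library. Among the 12936 genes tested, 2175 had a lower log2 change than Ctsl over the 4 h in TTP-KO and 633 in WT. Without the small TTP-KO libraries B and C of 4 h the log2 difference at 4 h was 4.45. Reads of Ctsl were not whole numbers in 16 of the 24 libraries, against 2 to 11 libraries for the other members, so part of its reads may be shared with another locus.

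**Figure D1:**
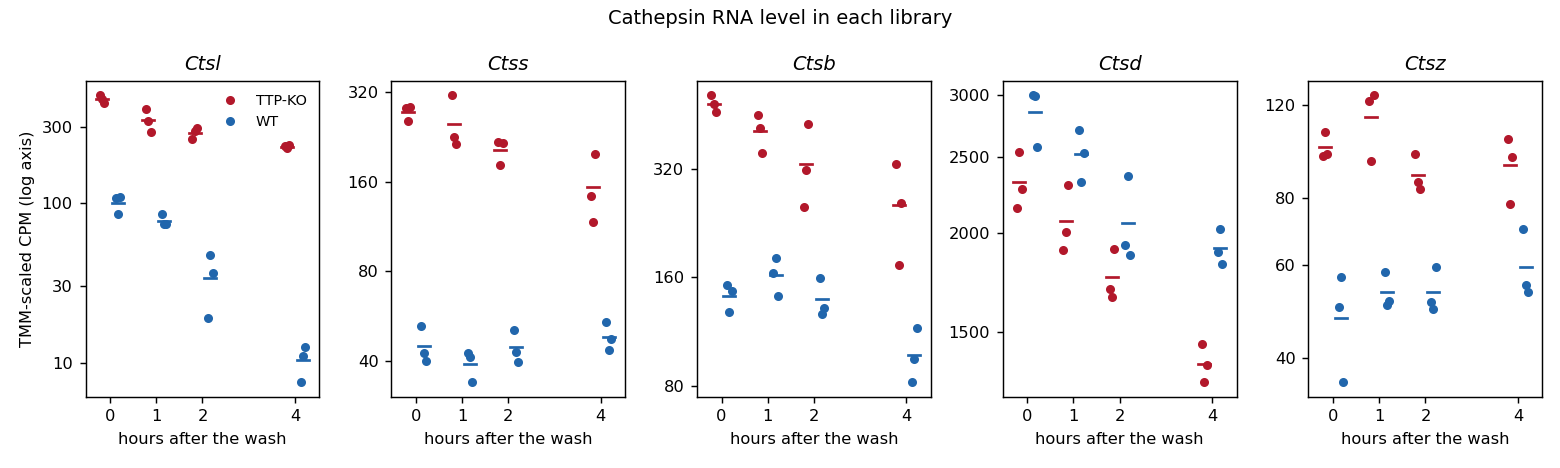
TMM-scaled CPM (log axes, a scale for each gene) of the 5 cathepsins at 0, 1, 2 and 4 h after the wash, with a point per library, TTP-KO in red left of WT in blue, and a bar at the mean of 3 libraries. Ctsl reaches 10.3 CPM in WT at 4 h while TTP-KO stands at 226, and Ctsd is the one member with lower means in TTP-KO.

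Ctss (ENSMUSG00000038642, chromosome 3) encodes cathepsin S, a cysteine endopeptidase that stays active near neutral pH and cleaves the invariant chain in antigen-presenting cells. In TTP-KO it stood at 283, 256 and 284 CPM in libraries A, B and C at 0 h, at 312, 226 and 214 at 1 h, at 217, 182 and 216 at 2 h, and at 143, 117 and 199 at 4 h. The WT libraries held 52.3, 42.5 and 39.9 CPM at 0 h, 42.4, 41.0 and 33.8 at 1 h, 50.7, 42.8 and 39.6 at 2 h, and 53.7, 43.4 and 47.3 at 4 h. All TTP-KO libraries lay above all WT libraries, and WT groups next to each other in level overlapped.

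Ctss was higher in TTP-KO at all 4 times, with log2 differences of 2.61 ± 0.19 (edgeR adjusted p = 1.46e-14), 2.68 ± 0.19 (5.22e-15), 2.21 ± 0.19 (2.21e-12) and 1.67 ± 0.18 (1.10e-08) at 0, 1, 2 and 4 h. Unlike Ctsl, its distance was smaller at 4 h than at 0 h. It fell in TTP-KO over the 4 h by 0.84 ± 0.18 on the log2 scale (edgeR adjusted p = 0.000326), to 55.8% of its mean at 0 h. In WT its change was 0.10 ± 0.18 (95% interval -0.26 to 0.46, edgeR adjusted p = 0.803). The difference between these changes was -0.94 ± 0.25 (95% interval -1.45 to -0.43) and did not pass (edgeR adjusted p = 0.129). It passed with DESeq2 (adjusted p = 0.0296), with no filter on low counts (edgeR, 0.0406) and without library TTP-KO 4 h C (-1.17, edgeR, 0.0378). With library totals alone as the scale, the fall in TTP-KO was -0.47 and did not pass (edgeR adjusted p = 0.0514).

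Ctsb (ENSMUSG00000021939, chromosome 14), the member with the TATTTAT shown above, encodes cathepsin B, a cysteine protease that acts both within chains and on their carboxyl ends. Libraries A, B and C of TTP-KO held 512, 483 and 459 CPM at 0 h, 451, 415 and 353 at 1 h, 249.9, 317 and 425 at 2 h, and 329.8, 174 and 257 at 4 h. Those of WT held 152, 128 and 147 CPM at 0 h, 165, 181 and 142 at 1 h, 159, 126 and 132 at 2 h, and 81.7, 95.1 and 116 at 4 h. At each time the TTP-KO libraries lay above the WT libraries, but their spread was wide at 2 and 4 h, and TTP-KO 4 h B lay below the highest WT library of 1 h.

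Ctsb was higher in TTP-KO by 1.77 ± 0.18 at 0 h on the log2 scale (edgeR adjusted p = 5.57e-10), 1.32 ± 0.17 at 1 h (8.94e-07), 1.25 ± 0.17 at 2 h (3.95e-06) and 1.38 ± 0.17 at 4 h (4.13e-07). It fell in both genotypes over the 4 h, by 0.93 ± 0.17 in TTP-KO (edgeR adjusted p = 3.81e-05) and by 0.55 ± 0.17 in WT (0.0208). The difference between these changes was -0.39 (95% interval -0.88 to 0.10, edgeR adjusted p = 0.720). The fall in WT did not pass without WT 0 h A or C or WT 4 h A or B (edgeR adjusted p from 0.0507 to 0.121), nor with library totals as the scale (-0.22, 0.401), and the fall in TTP-KO did not pass without TTP-KO 4 h B and C together (-0.56, 0.0582). At 2 h Ctsb was lower than at 0 h in TTP-KO by -0.55 (edgeR adjusted p = 0.0285), a call that ended without TTP-KO 0 h A or B or TTP-KO 2 h A or B.

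Ctsz (ENSMUSG00000016256, chromosome 2) encodes cathepsin Z, also called cathepsin X, a cysteine carboxypeptidase. Its levels in TTP-KO were 96.0, 107 and 97.2 CPM at 0 h, 122, 94.2 and 125 at 1 h, 97.0, 85.8 and 83.2 at 2 h, and 104, 78.0 and 95.7 at 4 h. In WT they were 50.0, 56.8 and 35.9 CPM at 0 h, 58.1, 50.3 and 51.1 at 1 h, 51.0, 49.4 and 59.3 at 2 h, and 70.1, 54.8 and 53.2 at 4 h. The TTP-KO libraries lay above the WT libraries at every time, by the least at 4 h.

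Ctsz was higher in TTP-KO at 0 h, by 1.07 ± 0.20 (edgeR adjusted p = 0.00101), and at 1 h, by 1.10 ± 0.20 (0.000572). At 2 h the log2 difference was 0.74 ± 0.20 (95% interval 0.34 to 1.13, edgeR adjusted p = 0.0784) and at 4 h 0.64 ± 0.20 (0.24 to 1.04, 0.0921), and neither passed. With DESeq2 both did, at 0.73 (adjusted p = 0.00419) and 0.68 (0.00691). No change of Ctsz with time passed in either genotype with edgeR: over the 4 h it was -0.11 in TTP-KO and 0.32 in WT, the first of which turned positive (0.26) with library totals as the scale, where the second passed (0.65, edgeR adjusted p = 0.0146).

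Ctsd (ENSMUSG00000007891, chromosome 7), the aspartic protease, took the other direction. Libraries A, B and C of TTP-KO held 2154, 2541 and 2278 CPM at 0 h, 1903, 2008 and 2307 at 1 h, 1702, 1662 and 1913 at 2 h, and 1445, 1293 and 1359 at 4 h. In WT they held 2997, 2989 and 2578 CPM at 0 h, 2704, 2327 and 2533 at 1 h, 1934, 2369.9 and 1878 at 2 h, and 1896, 2024 and 1829 at 4 h. The TTP-KO libraries lay below the WT libraries at 0, 1 and 4 h, and the genotypes overlapped at 2 h.

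Ctsd was lower in TTP-KO at 4 h, by -0.49 ± 0.10 on the log2 scale (edgeR adjusted p = 0.00249), a call that ended without TTP-KO 4 h B and C (-0.42, 0.114). At 0, 1 and 2 h the differences were -0.30 (95% interval -0.50 to -0.10, edgeR adjusted p = 0.323), -0.28 (-0.48 to -0.08, 0.368) and -0.23 (-0.43 to -0.03, 0.571), and none passed. Ctsd fell over the 4 h in both genotypes, by 0.77 ± 0.10 in TTP-KO (edgeR adjusted p = 2.91e-08) and by 0.58 ± 0.10 in WT (1.36e-05), with a difference of -0.19 ± 0.14 (95% interval -0.47 to 0.09, 0.811). At 2 h it was already lower than at 0 h, by -0.40 in TTP-KO (edgeR adjusted p = 0.00376) and by -0.47 in WT (0.000598), and the first of these calls ended without TTP-KO 0 h B (-0.33, 0.0520). With library totals as the scale neither call at 2 h passed (-0.19, edgeR adjusted p = 0.201, and -0.22, 0.136), and the fall over 4 h in WT was -0.25 and did not pass (edgeR adjusted p = 0.0529).

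**Figure D2:**
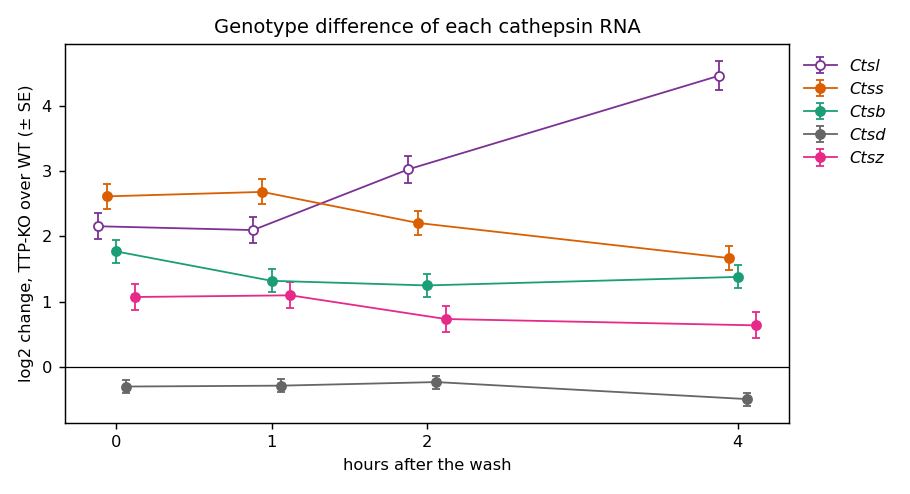
Log2 difference between TTP-KO and WT (edgeR, bars are SE, positive means higher in TTP-KO) of each cathepsin at 0, 1, 2 and 4 h after the wash. Ctsl reaches 4.46 at 4 h, Ctss goes down to 1.67, Ctsb stays between 1.25 and 1.77, and Ctsd lies below 0.

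Of the 4 members that were tested, 3 were called higher in TTP-KO at 0 h, 3 at 1 h, 2 at 2 h and 2 at 4 h, beside the shares of all genes called higher given with the macrophage markers. 1 member was called lower at 4 h, where 0.881% of all genes were. Since the 5 genes were picked with these results known, nothing is read from the shares. From 0 h to later times, 0, 2 and 3 of the 4 were called lower in TTP-KO at 1, 2 and 4 h, where 1.51%, 5.77% and 10.6% of all genes were, and 0, 1 and 2 in WT, where 1.28%, 6.47% and 9.97% were. By DESeq2 none of the 4 was called at 1 h either, and by edgeR none had an unadjusted p under 0.05 at that time. For the difference between the genotypes' changes over the 4 h, 0 of the 4 passed with edgeR, 1 of them (Ctss) had an unadjusted p under 0.05, and 0.193% of all genes were called.

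Ctsd gave many more reads than the others and had lower means in TTP-KO, where the other 4 had higher means. The summed reads of the 5 genes therefore differed little between the genotypes. They made up 0.324% ± 0.0131 of all reads in TTP-KO and 0.286% ± 0.0222 in WT at 0 h, and 0.241% ± 0.0187 in TTP-KO and 0.239% ± 0.0111 in WT at 4 h. Within this sum, Ctsd took 63.9% to 66.2% of the reads in the TTP-KO groups and 88.3% to 89.9% in the WT groups. The 4 cysteine cathepsins together were 0.117% ± 0.00501 of all reads in TTP-KO and 0.0301% ± 0.00257 in WT at 0 h.

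Promoters were examined for the sequence CACGTG, the core of the element through which TFEB and related factors drive many lysosomal genes. RefSeq promoter windows (GRCm38.p6, 250 bases before to 50 after the start site) were matched by symbol for 4 of the 5 genes, all but Ctsb. CACGTG reads the same on both strands and was in 7.15% of 32851 windows. Counted from the start site, it began at position -236 in Ctsl and at positions -245 and -98 in Ctsd, and the windows of Ctss and Ctsz did not hold it. Both windows are shown with CACGTG in capitals, for Ctsl at chr13:64370471-64370770 and for Ctsd at chr7:142387778-142388077, each on the minus strand:
Ctsl: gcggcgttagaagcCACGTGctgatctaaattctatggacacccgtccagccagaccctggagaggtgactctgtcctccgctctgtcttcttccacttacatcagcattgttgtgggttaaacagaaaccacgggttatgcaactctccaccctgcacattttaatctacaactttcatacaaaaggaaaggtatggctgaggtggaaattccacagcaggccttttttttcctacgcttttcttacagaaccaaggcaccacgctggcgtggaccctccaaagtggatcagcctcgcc
Ctsd: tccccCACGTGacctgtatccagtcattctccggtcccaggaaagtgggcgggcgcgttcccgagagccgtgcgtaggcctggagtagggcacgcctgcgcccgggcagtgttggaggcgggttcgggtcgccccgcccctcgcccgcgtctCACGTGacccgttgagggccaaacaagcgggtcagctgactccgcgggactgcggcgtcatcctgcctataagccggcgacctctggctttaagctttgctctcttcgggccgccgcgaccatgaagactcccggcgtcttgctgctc

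The second copy in Ctsd lies in the longer TCACGTGA, which 0.974% of windows held. The letters are a description of these windows and say nothing of which factor was bound.

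Calls between the genotypes in the other lists of lysosomal genes stand beside the shares of all genes. At 0, 1, 2 and 4 h, 0.448%, 0.402%, 0.410% and 0.943% of all genes were called higher in TTP-KO. With shares this low, nothing is read from 0 calls in a short list. Of 12 further cathepsins and related peptidases, 0 were called in TTP-KO against WT by edgeR at any time, with median log2 differences of 0.14, 0.00, 0.00 and 0.01 at 0, 1, 2 and 4 h, beside medians over all genes of 0.00, -0.01, 0.00 and 0.00. Of these 12, 1, 3, 3 and 4 had an unadjusted p under 0.05, as did 900, 916, 943 and 1529 of all 12936 genes, and DESeq2 called 0, 2, 0 and 1. Some uncalled values were large with a wide error, such as that of Lgmn, the gene of legumain, at 4 h (2.26 ± 0.73, edgeR adjusted p = 0.117), picked after its values were seen. Of 12 measured cathepsin inhibitors, among them the cystatin genes Cst3 and Cstb, 0 were called by edgeR at any time, 1, 1, 2 and 3 had an unadjusted p under 0.05, and DESeq2 called 0, 1, 0 and 3. The 11 genes of lysosomal gene control, with Tfeb, Tfe3 and Mitf, had 0 calls by either tool, 0, 1, 0 and 4 of them at an unadjusted p under 0.05, and a median of -0.34 at 4 h.

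Of 33 lysosomal hydrolases and their cofactors, edgeR called 2 higher in TTP-KO at all 4 times and none lower. At 0, 1, 2 and 4 h, 4, 5, 6 and 8 of them had an unadjusted p under 0.05, of which 4, 4, 2 and 2 were higher in TTP-KO. DESeq2 called 2 higher at each time, and 1 lower at 4 h. Psap encodes prosaposin, the precursor of proteins that help to break down sphingolipids. It stood at 853 ± 84.3 CPM in TTP-KO and 422 ± 46.9 CPM in WT at 0 h (log2 difference 1.01 ± 0.12, edgeR adjusted p = 3.75e-08) and at 348 ± 28.0 CPM in TTP-KO and 242 ± 16.2 CPM in WT at 4 h (0.52 ± 0.12, 0.00719). Acp5, the tartrate-resistant acid phosphatase of osteoclasts and macrophages, averaged 44.4 ± 7.49 CPM in TTP-KO and 14.8 ± 6.78 CPM in WT at 0 h (1.58 ± 0.38, edgeR adjusted p = 0.0292). At 4 h Acp5 stood at 23.4 ± 2.44 CPM in TTP-KO and 4.82 ± 2.58 CPM in WT (2.28 ± 0.39, 0.000278). The list's median stayed between -0.08 and 0.00. The call of Acp5 ended at 0 h without TTP-KO 0 h A or B or WT 0 h A or B, and at 1 h without TTP-KO 1 h B or WT 1 h B or C. That of Psap ended at 2 h without TTP-KO 2 h B or C or any WT 2 h library, with library totals as the scale (edgeR adjusted p = 0.0568) and with only the groups compared (0.151), and at 4 h without WT 4 h B, and the calls of Psap and Acp5 at 4 h ended when only the groups compared were fitted (edgeR adjusted p = 0.119 and 0.116).

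Among 30 lysosomal membrane proteins and subunits of the proton pump, 2 pump subunits were higher in TTP-KO at 1 h and none at other times with edgeR. Atp6v1a, the catalytic subunit of the pump, was at 343 ± 50.1 CPM in TTP-KO and 232 ± 20.1 CPM in WT (0.56 ± 0.14, edgeR adjusted p = 0.0331). Atp6v0d2 was at 24.8 ± 4.09 CPM in TTP-KO and 2.12 ± 0.885 CPM in WT (3.54 ± 0.87, 0.0375). Both calls ended without single libraries of 1 h, A and B of TTP-KO and A and C of WT for both and WT 1 h B for Atp6v0d2. That of Atp6v1a also ended with library totals as the scale (edgeR adjusted p = 0.0712) and with only the groups compared (0.0800). Atp6v0d2 passed at 4 h with no filter (edgeR adjusted p = 0.02004), with DESeq2 (0.0256) and without TTP-KO 4 h A (edgeR, 0.0279), and at 0 h without WT 0 h C (edgeR, 0.0471). At 0, 2 and 4 h, 7, 4 and 6 of the 30 had an unadjusted p under 0.05, and DESeq2 called 0, 1 and 2. Of 15 genes of lysosomal enzyme sorting, 0 were called between genotypes by edgeR at any time, 1, 2, 0 and 4 had an unadjusted p under 0.05, and DESeq2 called 1, 0, 0 and 1.

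M6pr, the cation-dependent mannose 6-phosphate receptor that carries new lysosomal enzymes, was the 1 sorting gene whose change over the 4 h differed between genotypes. Its log2 change was -1.27 ± 0.14 in TTP-KO and -0.42 ± 0.14 in WT, a difference of -0.85 ± 0.19 (edgeR adjusted p = 0.0398). The call held under 5 of 19 alternatives, with differences from -0.95 to -0.73 and adjusted p from 0.000510 to 0.193, and ended when any WT library of 0 or 4 h, any TTP-KO library of 0 h or TTP-KO 4 h B was left out. M6pr was picked after its values were seen.

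**Figure D3:**
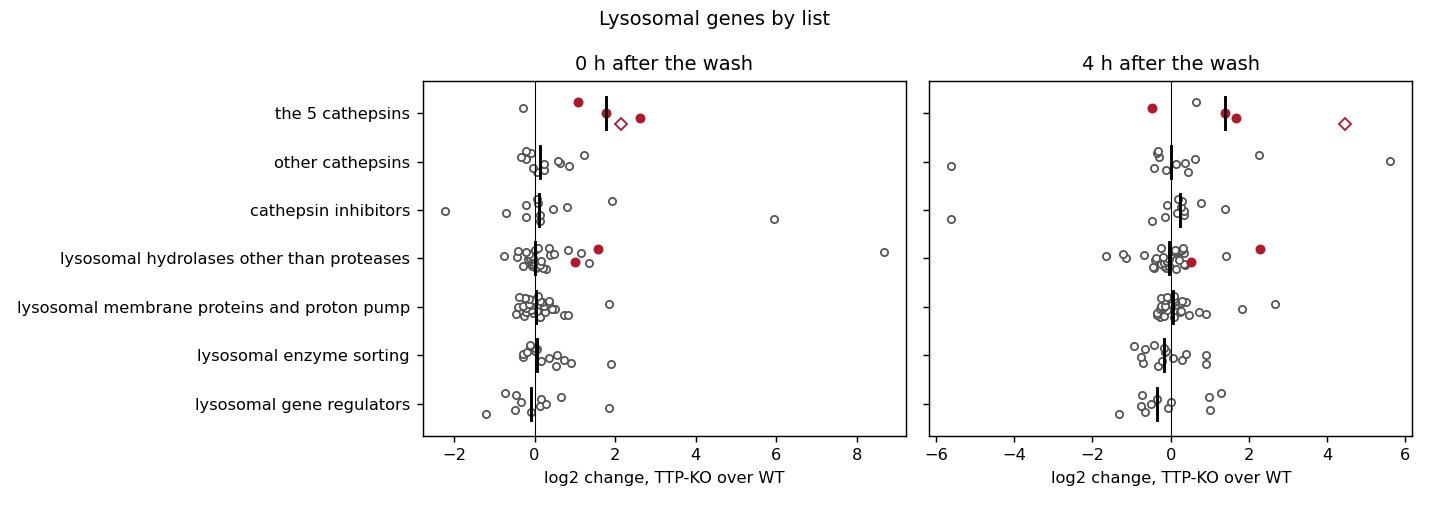
Log2 difference between TTP-KO and WT (edgeR) of each tested gene in 6 lists of lysosomal genes and of the 5 cathepsins, at 0 and 4 h. Filled red points were called, and open circles are tested genes that were not called. The open diamond is Ctsl, which was not tested, and black bars are list medians. Outside the 5 cathepsins, the filled points at both times are Psap and Acp5.

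The falls with time were wider spread. Of the 12 other cathepsins, 6 were lower at 4 h than at 0 h in TTP-KO and 5 in WT, with medians of -0.64 and -0.63 beside 0.08 and 0.06 over all genes, of which 10.6% were lower in TTP-KO and 9.97% in WT. They included Ctsa, a carboxypeptidase that also protects other lysosomal enzymes (-1.03 ± 0.19 in TTP-KO and -1.41 ± 0.20 in WT), and Ctsc, the peptidase that activates granule proteases (-0.998 ± 0.15 in TTP-KO and -0.64 ± 0.15 in WT). Of the 33 hydrolases, 11 were lower in TTP-KO and 9 in WT, with medians of -0.67 and -0.44. Man2b1, the lysosomal alpha-mannosidase, changed by -1.52 ± 0.14 in TTP-KO and by -1.35 ± 0.14 in WT. With library totals as the scale, the median of all genes moved to 0.45 in TTP-KO and 0.38 in WT at 4 h. The counts lower became 4 and 3 of 12 and 9 and 5 of 33, beside 818 and 748 of all 12936 genes.

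At 4 h against 0 h, 7.45% of all genes were higher in TTP-KO and 6.76% in WT. Among the membrane proteins and pump subunits, 6 were lower and 3 higher at 4 h in TTP-KO, and 5 lower and 2 higher in WT. Lamp1, a main membrane protein of lysosomes, changed by -0.64 ± 0.12 in TTP-KO and by -0.61 ± 0.12 in WT, and Cd63, a tetraspanin of lysosomes and granules, by 0.44 ± 0.11 in TTP-KO and by 0.36 ± 0.11 in WT. That split turned to 2 lower and 10 higher in TTP-KO and 2 lower and 7 higher in WT with library totals as the scale. Of all 12936 genes, 818 were lower and 2156 higher in TTP-KO on that scale, and 748 lower and 1831 higher in WT. Of the 11 genes of lysosomal gene control, 4 were lower and 1 higher in TTP-KO and 3 lower and 2 higher in WT, among them the genes of both folliculin partners, Fnip1 at -2.48 ± 0.17 in TTP-KO and -1.69 ± 0.17 in WT and Fnip2 at -1.58 ± 0.26 in TTP-KO and -1.92 ± 0.27 in WT. Mitf was among those higher in WT (3.15 ± 1.03), and Tfec, of the same family, was the one higher in TTP-KO (3.47 ± 1.06). For the difference between the genotypes' changes, 0 of the 11 were called by edgeR, beside 0.193% of all genes, and 3 had an unadjusted p under 0.05. Of the inhibitors, 2 were lower and 3 higher in TTP-KO and 2 lower and 1 higher in WT, among them Cst3, which encodes cystatin C (-0.91 ± 0.14 in TTP-KO). Of the 12 measured inhibitors, 0 were called by edgeR for the difference between the genotypes' changes, and 2 had an unadjusted p under 0.05. Of the 15 sorting genes, 4 were lower and 0 higher in TTP-KO, and 2 lower and 1 higher in WT.

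The macrophage markers were set beside the cathepsins library by library. Their summed level was 2.42, 2.59, 2.61 and 2.41 times as high in TTP-KO as in WT at 0, 1, 2 and 4 h, and at 4 h it stood at 65.5% of its own 0 h mean in TTP-KO and at 65.8% in WT. Per unit of this sum, Ctsl was 17.0% ± 1.16, 13.3% ± 2.05, 13.2% ± 0.873 and 13.2% ± 1.12 of it in TTP-KO at 0, 1, 2 and 4 h, against 9.20% ± 1.03, 8.15% ± 1.29, 4.21% ± 1.72 and 1.43% ± 0.308 in WT. The ratio of Ctsl to the markers was thus close to level in TTP-KO from 1 h on and lower at each later time in WT. Since Ctsl was selected for its course in the 2 genotypes, its place beside the markers repeats that choice and was not tested. Over the 4 h in WT, the 19 markers had log2 changes from -1.76 (Cx3cr1, SE 1.40) to 2.65 (Mertk, SE 1.47), both with wide errors. Their median was -0.28, the value of Fcgr1 (SE 2.06), and Ctsl changed by -3.29 (SE 0.21). By edgeR, 7 of the 19 were called lower over the 4 h in WT and 6 in TTP-KO, and none higher. Of all genes, 9.97% were lower in WT and 10.6% in TTP-KO. The changes of those called in WT lay between -1.68 (C1qc, SE 0.54) and -0.61 (Gpnmb, SE 0.15).

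For Ctss the same ratio was 10.4% ± 0.910, 10.1% ± 1.85, 9.76% ± 1.03 and 8.76% ± 1.46 in TTP-KO, against 4.11% ± 0.527, 4.11% ± 0.671, 5.54% ± 0.940 and 6.72% ± 0.918 in WT. Ctsb stood at 18.4% ± 1.23 in TTP-KO and 13.0% ± 0.825 in WT at 0 h, and at 14.7% ± 4.80 in TTP-KO and 13.5% ± 1.84 in WT at 4 h. Its ratio at 1 and 2 h was 16.4% ± 1.91 and 15.6% ± 2.78 in TTP-KO and 17.1% ± 2.18 and 17.3% ± 2.78 in WT. Ctsz was 3.79% ± 0.108 of the sum in TTP-KO and 4.38% ± 1.05 in WT at 0 h, and 5.37% ± 0.815 in TTP-KO and 8.31% ± 1.601 in WT at 4 h. Ctsd stood at 88.0% ± 4.83 of the sum in TTP-KO and 262% ± 23.99 in WT at 0 h, and at 79.6% ± 9.10 in TTP-KO and 267% ± 19.7 in WT at 4 h. The SDs of the genotypes met for Ctss at 4 h, for Ctsb at 1, 2 and 4 h and for Ctsz at 0 and 1 h, and none of these ratios was tested. How a cathepsin stands against the markers turns with the value taken for them. Lyz2 alone gave 976 ± 14.3 CPM of the summed 2638 CPM in TTP-KO and 482 ± 21.7 CPM of the summed 1090 CPM in WT at 0 h. The median log2 difference of the 19 markers was 1.97, 1.67, 2.26 and 2.49 at 0, 1, 2 and 4 h, above that of Ctss at 2 and 4 h, and at 0 h Apoe (2.78) and Gpnmb (3.03) lay above both Ctsl (2.15) and Ctss (2.61).

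**Figure D4:**
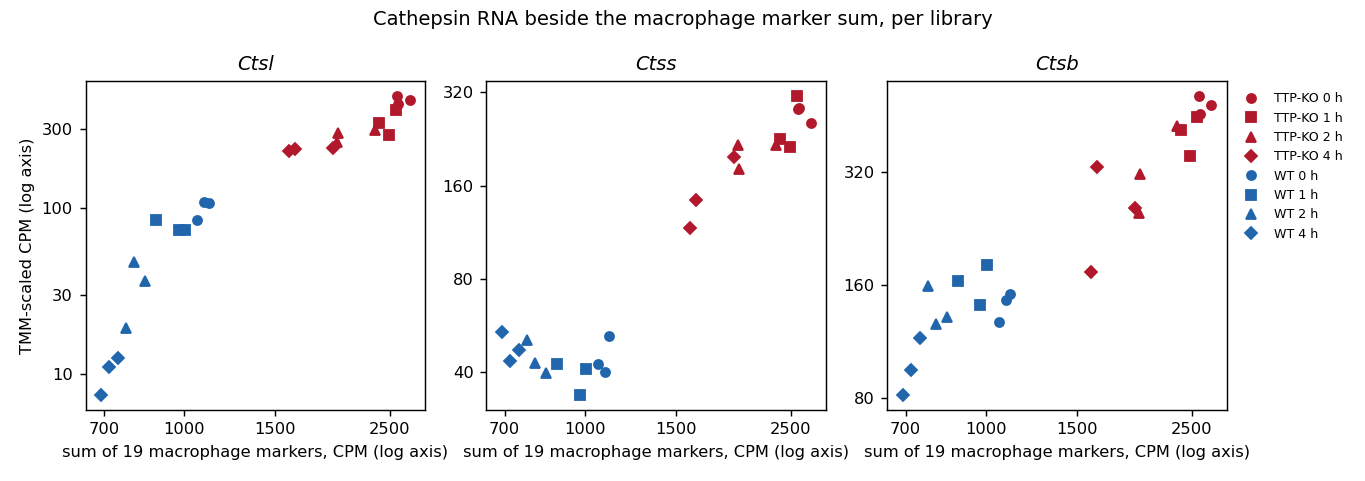
TMM-scaled CPM of Ctsl, Ctss and Ctsb (log axes) against the summed CPM of 19 macrophage markers (log axis) in each of the 24 libraries, TTP-KO in red and WT in blue, with a symbol for each time. All TTP-KO libraries lie to the right of all WT libraries, and Ctsl spreads from 7.50 to 109 CPM over a span of 691 to 1116 CPM of markers in WT.

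Genes whose level most resembled that of Ctsl over the 24 libraries (Pearson r of log2 CPM) were Apoe (0.94), Acp5 (0.94), Lyz2 (0.92), Gpnmb (0.90) and Ctsb (0.89). The other members had r of 0.81 for Ctss, 0.68 for Ctsz and -0.08 for Ctsd. For Ctss the most alike were Gpnmb (0.96), Apoe (0.94), Cd74 (0.93), which encodes the invariant chain that cathepsin S cleaves, Ctsz (0.92) and Ctsb (0.91), while Ctsd had r of -0.38. Apoe, Lyz2 and Gpnmb are among the 19 macrophage markers. The points share their libraries and fall apart by genotype, so these values describe the likeness and carry no test. Apoe, an apolipoprotein made by macrophages, stood at 367 ± 32.0 CPM in TTP-KO and 53.5 ± 3.99 CPM in WT at 0 h, and at 197 ± 38.2 CPM in TTP-KO and 23.8 ± 4.41 CPM in WT at 4 h. The remaining defining markers had log2 differences at 0 h of 1.02 ± 0.12 for Lyz2 (lysozyme), 1.67 ± 0.26 for Csf1r (the receptor of the growth factor M-CSF) and 4.67 ± 1.06 for Mrc1 (the mannose receptor), all called by edgeR. The call of Mrc1 ended without WT 0 h A or B and with DESeq2 (adjusted p = 0.0548). C1qa, a chain of complement C1q, had 2.50 ± 0.64 (edgeR adjusted p = 0.0577), and passed with DESeq2 (adjusted p = 0.00577), with no filter on low counts (edgeR, 0.00637), with the replicate block (edgeR, 0.0360) and without TTP-KO 0 h A (edgeR, 0.0391) or WT 0 h A (edgeR, 0.00936).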

How the data were processed

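RNA of 24 libraries was read as 3′ tags (QuantSeq, with no molecular identifiers in the table). Per the submitters' processing notes, cutadapt 3.5, SAMtools, STAR 2.7.10a and the build GRCm39 were used, with roles and order not given. The series' design text credits half-lives to GRAND-SLAM and grandR. The authors deposited expected counts per gene and library, not normalized, of which 12.8% were not whole (tolerance 1e-06), and they were rounded here. The table's letters A to C are not tied to the labels' replicate numbers, so columns were assigned to groups only. A further 144 per-sample columns, with the new-to-total ratios, were not used, so no half-lives are given. The members, gene lists and tests were chosen with earlier results of these data known.

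In R 4.3.3, edgeR 4.0.16 scaled the reads (TMM), filterByExpr left 12936 genes, and a single quasi-likelihood fit gave every one of the 8 groups its own mean. Calls were made at an adjusted p (Benjamini-Hochberg, over all genes tested) under 0.05. The procedure was run on simulated counts with the same spread for every gene, a simpler setting than these data, and nothing is read from it. DESeq2 1.42.0, other scalings, no filter, only the groups compared, a replicate block and left-out libraries were tried. Named genes were the members, the 5 genes most like Ctsl and Ctss (prior count 2), up to 4 genes a pathway list called between genotypes, 6 macrophage markers and Zfp36. Called markers of basophils, mast cells, neutrophils and dendritic and B cells were also named. Examples of changes with time, Lgmn and M6pr were picked after their values were seen. Libraries of 1 group differed from each other beyond counting noise (chi-square per degree of freedom 29.5 to 77.2 over 24 pairs). Symbols are the table's. Marker lists of further cells were also summed. In TTP-KO and WT at 0 h, neutrophil markers gave 3924 and 4522 CPM, eosinophil markers 271 and 232 CPM and NK and T cell markers 3.16 and 2.87 CPM. At 4 h the neutrophil markers gave 3410 ± 72.8 CPM in TTP-KO and 2584 ± 140 CPM in WT. Of these 9 markers, edgeR called S100a8 (log2 difference 0.53) and S100a9 (0.40) higher in TTP-KO at 4 h, beside 0.943% of all genes. S100a8 was also called for the difference of the changes over 4 h (0.81 ± 0.18, edgeR adjusted p = 0.0398).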

Additional observations from a re-analysis of the deposited data

How the results depend on the processing

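Between genotypes, the calls of Ctss and Ctsb at all 4 times and of Ctsz at 0 and 1 h kept their direction and their side of the threshold under every alternative run. For Ctsl the log2 difference stayed between 1.96 and 4.62 with 1 library left out. Counts of genes called in TTP-KO against WT at 0, 1, 2 and 4 h, 68, 65, 67 and 236, became 222, 196, 234 and 482 with DESeq2, which called 656 and 590 at 1 h against 0 h in TTP-KO and WT (354 and 302 with edgeR) and 181 for the difference of the changes (25 with edgeR). With no filter they were 123, 108 and 127 at 0, 1 and 2 h, and 89 for the difference. With only the groups compared they were 116, 41 and 47 at 0, 2 and 4 h, and 16 for the difference. DESeq2 called Ctsz at 2 and 4 h (0.73 and 0.68) and the difference of Ctss (-0.91), which also passed with no filter (-0.94). With only the groups compared, the change of Ctss in TTP-KO at 2 h passed (-0.42), and that in WT at 2 h was 0.0015 in place of -0.015.

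With library totals as the scale, the median of all genes at 2 and 4 h moved to 0.23 and 0.45 in TTP-KO and to 0.26 and 0.38 in WT (0.02 and 0.08, and 0.01 and 0.06, with TMM). Changes from 0 h were then, in TTP-KO, -0.49 and -0.61 for Ctsl at 2 and 4 h, -0.34 for Ctsb and -0.19 for Ctsd at 2 h, and -0.47 for Ctss at 4 h, none of the tested ones past the threshold. In WT they were -0.22 for Ctsd at 2 h, and -0.22 for Ctsb and -0.25 for Ctsd at 4 h, also not past it, while Ctsz passed at 4 h (0.65). Values with no call turned positive for Ctsz in TTP-KO (0.032 at 2 h, 0.26 at 4 h) and in WT at 2 h for Ctss (0.24) and Ctsb (0.22).

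Without TTP-KO 4 h B and C, where the lone library is assumed to vary like the other groups, 130 genes were called at 4 h and 58 for the difference. Ctsd at 4 h (-0.42) and the fall of Ctsb in TTP-KO (-0.56) no longer passed, the change of Ctsz in TTP-KO was 0.046, and Adgre1 at 4 h 0.14. With 1 library left out in turn, calls ranged from 137 to 431 at 4 h (431 without A, 142 without B and 137 without C of TTP-KO 4 h) and from 8 to 114 for the difference (114 without TTP-KO 4 h A). In TTP-KO at 2 h, Ctsb ranged from -0.77 to -0.36 and Ctsd from -0.47 to -0.33, whose call was lost without TTP-KO 0 h B. In WT, Ctsb at 4 h ranged from -0.68 to -0.43. The difference of Ctss ranged from -1.17 to -0.78. Changes with no call crossed 0 for Ctsz in TTP-KO at 4 h (-0.18 to 0.0032) and in WT at 1 h (-0.0058 to 0.31) and 2 h (-0.0042 to 0.31), and in WT at 2 h for Ctss (-0.10 to 0.11) and Ctsb (-0.12 to 0.033), and Adgre1 at 0 h lay between -0.046 and 0.19. The cause was not tested.

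Libraries with the same letter did not deviate together (r from -0.12 to 0.11 over 84 pairs). Whether a letter stands for a shared mouse or culture is not stated and cannot be told from these values. With the letter as a replicate block, 75, 76, 72 and 240 genes were called between genotypes and 26 for the difference, and it changed no call of a cathepsin. In WT at 4 h Ctsl rested on 162 to 209 reads a library.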
